A study of Mus musculus with 12 samples.

Results

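The cytochrome P450 genes of families 2, 3 and 4 were followed in liver RNA of 6 wild-type (WT) mice and 6 Hsd17b13 knockout (KO) mice. Members were the genes whose mouse symbol begins with Cyp2, Cyp3 or Cyp4 and a further letter and whose mean over the 12 libraries was at least 1 CPM (counts after each library is scaled to 1000000). Cyp2e1, Cyp2f2, Cyp2c70 and 4 pseudogene symbols were left out by the rule. This gave 46 members among 20143 genes in the table, 27 of family 2, 5 of family 3 and 14 of family 4, all of them annotated as protein coding. Of the 61 genes with these prefixes, 8 fell under the minimum. Cyp3a57 (mean 1.24 CPM) and Cyp2c39 (1.41) lay just above it, and Cyp2s1 (0.718) and Cyp2b13 (0.519) just below. The other genes under it were Cyp4f39, Cyp2g1, Cyp2d11, Cyp3a16, Cyp3a44 and Cyp3a41a, with means from 0.185 to 0.415. The rule used no difference between genotypes.

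The mice were 8 to 10 weeks old when they were put on CDAA-HFD, a high-fat diet without choline and with defined amino acids, and they stayed on it for 12 weeks. The diet leaves the liver fatty, inflamed and scarred. The groups differed by genotype, WT or Hsd17b13-KO, so both carried the diet and no group on normal food was analysed here. The Hsd17b13 protein is a lipid droplet enzyme made in hepatocytes. Each mouse gave 1 library, numbered 1 to 6 within its genotype, and the sources used here do not say which exons the KO allele lacks. The labels name no litter, sex or batch. The p-values set the genotype difference against the spread between these mice. They cannot separate genotype from a litter or batch that went with it.

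P450 enzymes are haem proteins of the endoplasmic reticulum that insert an oxygen atom into fat-soluble substrates, with electrons passed on by P450 reductase. In liver, families 2 and 3 oxidise drugs, plant compounds, steroids and arachidonic acid, and family 4 oxidises the end of fatty acid chains, a step towards their breakdown. Many of the genes respond to nuclear receptors. The constitutive androstane receptor (CAR, gene Nr1i3) and the pregnane X receptor (PXR, gene Nr1i2) sense foreign compounds and bile acids, and PPARalpha (gene Ppara) senses fatty acids. Several mouse members also differ in level between male and female liver.

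The libraries followed their labels. Hsd17b13 (ENSMUSG00000034528, chromosome 5) lay between 315 and 393 CPM in WT and between 0.956 and 1.40 in KO. From the steps between values, 1 CPM stood for 46.3 to 77.9 counts, so counting error at 10 CPM was at most 4.65%, and at 1 CPM it was 11.3% to 14.7%. KO mice 1 and 3 stood apart from the other KO mice at some genes of chromosome 5. Pebp1, for example, was at 195 and 214 CPM in them, 288 to 308 in the other KO mice and 92.4 to 110 in WT. At this gene they thus lay between the WT mice and the other KO mice. Counts below are also given without KO mice 1 and 3 where the counts moved. Hepatocyte markers fitted the labelled tissue, with 9 of 9 present, a summed level of 68931 to 89072 CPM in WT and 71226 to 86016 in KO, and 8 of 9 differences positive. All 6 cholangiocyte markers had lower KO means, with summed levels of 262 to 778 CPM in WT and 155 to 322 in KO, and Krt7 passed the test (limma adjusted p = 0.0495). Of 7 markers of recruited macrophages, all had lower KO means, with sums of 1492 to 2822 CPM in WT and 978 to 1457 in KO. Spp1, a chromosomal neighbour of Hsd17b13, was in both the cholangiocyte and the macrophage list, so these lists are not separate. Other lists had positive log2 differences and 0 calls: 5 of 5 markers of resident Kupffer cells tested (4 at an unadjusted p under 0.05, sums of 195 to 336 CPM in WT and 319.7 to 489 in KO), 5 of 5 of sinusoidal endothelium, 4 of 4 of T cells and 3 of 3 of neutrophils. The pancreatic gene Cela1 stood at 224 CPM in WT mouse 1 and 94.4 in KO mouse 3, against 4.99 to 7.25 in the other mice. For lung and kidney, organs that also express P450 genes, 0 of 4 and 0 of 5 markers were among the genes analysed here. The part of these cell types in the P450 values was not tested. In whole liver, fewer cells of a type and less RNA per cell cannot be told apart.

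Upstream sequence is shown first for 2 sets of members that are near-identical copies of each other but were measured at different levels, and for Cyp3a11, the most abundant member of family 3. The 250 bases before the RefSeq start are given 5′ to 3′ on the gene's strand, from RefSeq on GRCm38.p6. Capitals mark TATAAA, the letters of a TATA box, AGGTCA, the core motif of nuclear receptor sites, and CAAAGTCCA, an element of the type bound by the liver factor HNF4. Cyp2a5 and Cyp2a4 are steroid and coumarin hydroxylases of chromosome 7, from chr7:26835089-26835338 and chr7:26306942-26307191 on the plus strand.
Cyp2a5: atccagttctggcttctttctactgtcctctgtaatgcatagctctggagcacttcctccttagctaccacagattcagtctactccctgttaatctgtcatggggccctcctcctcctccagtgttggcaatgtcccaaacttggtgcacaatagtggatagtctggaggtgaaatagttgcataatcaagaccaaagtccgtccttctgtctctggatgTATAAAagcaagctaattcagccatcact
Cyp2a4: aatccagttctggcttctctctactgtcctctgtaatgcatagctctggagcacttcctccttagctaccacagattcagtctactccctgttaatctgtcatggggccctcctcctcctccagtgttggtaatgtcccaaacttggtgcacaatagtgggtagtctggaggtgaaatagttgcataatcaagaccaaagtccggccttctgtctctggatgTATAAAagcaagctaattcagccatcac
These windows were identical at 245 of 249 aligned positions (98.4%), and the transcripts were 98.2% identical over 1739 bases. Cyp2a5 was measured at 125 CPM per kb of exon and Cyp2a4 at 3.97.
The Cyp2c67, Cyp2c68 and Cyp2c40 windows come from chr19:39649043-39649292, chr19:39741102-39741351 and chr19:39812815-39813064, all on the minus strand. Cyp2c40 encodes a hydroxylase of arachidonic acid, and the other two lie beside it in the 2c cluster.
Cyp2c67: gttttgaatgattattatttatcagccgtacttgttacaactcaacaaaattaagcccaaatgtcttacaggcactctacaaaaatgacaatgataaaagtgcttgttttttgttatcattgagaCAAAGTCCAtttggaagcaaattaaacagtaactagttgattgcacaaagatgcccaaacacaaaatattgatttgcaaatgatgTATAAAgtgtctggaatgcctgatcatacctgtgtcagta
Cyp2c68: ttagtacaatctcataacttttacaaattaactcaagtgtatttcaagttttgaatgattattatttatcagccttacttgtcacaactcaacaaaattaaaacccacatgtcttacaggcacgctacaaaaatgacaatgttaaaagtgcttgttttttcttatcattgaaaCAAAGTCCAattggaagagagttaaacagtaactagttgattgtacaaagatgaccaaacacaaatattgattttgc
Cyp2c40: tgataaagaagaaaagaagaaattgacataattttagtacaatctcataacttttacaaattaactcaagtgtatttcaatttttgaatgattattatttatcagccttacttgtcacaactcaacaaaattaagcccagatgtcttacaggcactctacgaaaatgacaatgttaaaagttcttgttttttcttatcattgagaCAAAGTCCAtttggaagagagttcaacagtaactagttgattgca
The 3 windows were 92.0% to 95.4% identical where they aligned, and the transcripts 97.0% to 98.0%. The mean levels per kb were 74.9 CPM for Cyp2c67, 56.2 for Cyp2c68 and 1.21 for Cyp2c40. The Cyp3a11 window, from the drug and steroid hydroxylase gene best known as a PXR target, is chr5:145879855-145880104 on the minus strand.
Cyp3a11: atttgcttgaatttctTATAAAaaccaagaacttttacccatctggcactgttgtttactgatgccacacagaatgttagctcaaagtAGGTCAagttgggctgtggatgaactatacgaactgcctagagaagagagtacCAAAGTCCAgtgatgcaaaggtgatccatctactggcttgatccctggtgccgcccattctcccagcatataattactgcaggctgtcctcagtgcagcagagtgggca
In this window TATAAA begins at -234 from the start, against -29 in Cyp2a5, -28 in Cyp2a4 and -40 in Cyp2c67. The Cyp2c windows are shifted against each other, with CAAAGTCCA at -125 in Cyp2c67, -77 in Cyp2c68 and -45 in Cyp2c40. The Cyp2c68 and Cyp2c40 windows end before the stretch that holds TATAAA in Cyp2c67, so that stretch was not searched in them.
Of all 46 members, 19 had a transcript at least 95% identical over at least 500 bases to that of another gene, and reads of such pairs cannot be assigned with certainty. Among them, Cyp2u1 matched only an antisense gene that overlaps it, which is no separate copy. For Cyp2u1 the doubt holds if counting ignored the strand.

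RefSeq promoter windows were found for 35 of the 46 members, and the 250 bases before each start were searched on both strands. In 25 of the 35 the next 50 bases lay in a GENCODE transcript of the gene. The Cyp2c68 window was not among these, and where this check failed the start and the positions are less certain. A pass shows only that the bases lie somewhere in a transcript, so it does not fix the start. In GENCODE the Cyp3a11 gene starts at 145879964 and the Cyp2a5 gene at 26835305, both inside their windows. The CAAAGTCCA of Cyp3a11 and the TATAAA of Cyp2a5 thus lie within the annotated genes. CAAAGTCCA was present in 4 of the 35 (11.4%), which are Cyp3a11 and the 3 Cyp2c genes printed above, against 0.381% of 27025 promoters. Since the Cyp2c windows are copies, these 4 are not independent of each other. TATAAA was present in 15 of 35 (42.9%) against 13.0% of all promoters, AGGTCA in 8 (22.9%) against 13.8%, and CCAAT in 18 (51.4%) against 34.5%. These counts too include copies and genes of the same subfamily, so their matches are not independent. Examples are Cyp3a25, Cyp3a57 and Cyp3a59 for AGGTCA and Cyp2a4 and Cyp2a5 for TATAAA. The CEBP-type element TTGCNCAA was in 2 (5.71%) against 2.60%, and the STAT palindrome TTCNNNGAA in 2 (5.71%) against 7.18%. Exact DR1, DR4 and HNF1 palindrome motifs had 0 matches in the 35 and occurred in 0.0370%, 0.0111% and 0.00740% of all promoters. AGGTCA is also a part of DR1 and DR4. A match here is a match of letters.

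The comparison of KO with WT asks which of these transcripts differ when Hsd17b13 is missing. Of the 46 members, 0 passed an adjusted p of 0.05 in either direction, against 31 of all 15648 genes tested (0.198%). The test was limma on log2(CPM + 1) over every gene whose mean reached 1 CPM, with Benjamini-Hochberg adjustment. The lowest adjusted p among the members was 0.240, for Cyp2a5. The 31 called genes comprised 16 higher and 15 lower in KO, 24 higher and 38 lower with median-of-ratios scaling, 74 and 138 with library weights, and 130 and 62 without KO mice 1 and 3. Members called numbered 0 in each of these fits. At an unadjusted p under 0.05 there were 4 members (8.70%), against 11.3% of all genes. All 4 were higher in KO, Cyp2a5, Cyp2d26, Cyp2j5 and Cyp4b1, and 3.62% of all genes had such a p in that direction. The members with such a p in either direction numbered 7 without KO mice 1 and 3 (13.2% of all genes in that fit), 8 without WT mouse 5 (15.0%), 8 without KO mouse 6 (10.9%) and 9 with library weights (15.7%).

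Differences were more often positive than negative. Of the members, 33 (71.7%) had a positive KO minus WT difference and 13 a negative one, against 39.2% positive among all genes tested. With quantile normalization and with median-of-ratios scaling the members had 33 positive differences again, while the share of all genes came to 52.7% and 51.4%. The median difference was 0.08 on the log2 scale for members and -0.03 for all genes. Differences ran from -0.47 for Cyp4a14 to 0.67 for Cyp2b9. In 0 of the 46 did the 6 KO values and the 6 WT values not overlap, against 1.32% of all genes. The members share clusters and sequence, so they are not 46 separate measurements. The 95% interval reached 0.31 to either side of a member's difference in the median, from 0.11 to 0.97. The interval lay within 1 log2 unit of 0 on both sides for 40 members and within 0.5 for 28. For the other members a change of 0.5 or more on the log2 scale lay inside the interval. Below, paired levels are the WT and then the KO mean ± SD in CPM (n = 6 each), and a signed number after them is the KO minus WT difference of log2(CPM + 1).

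**Figure D1:**
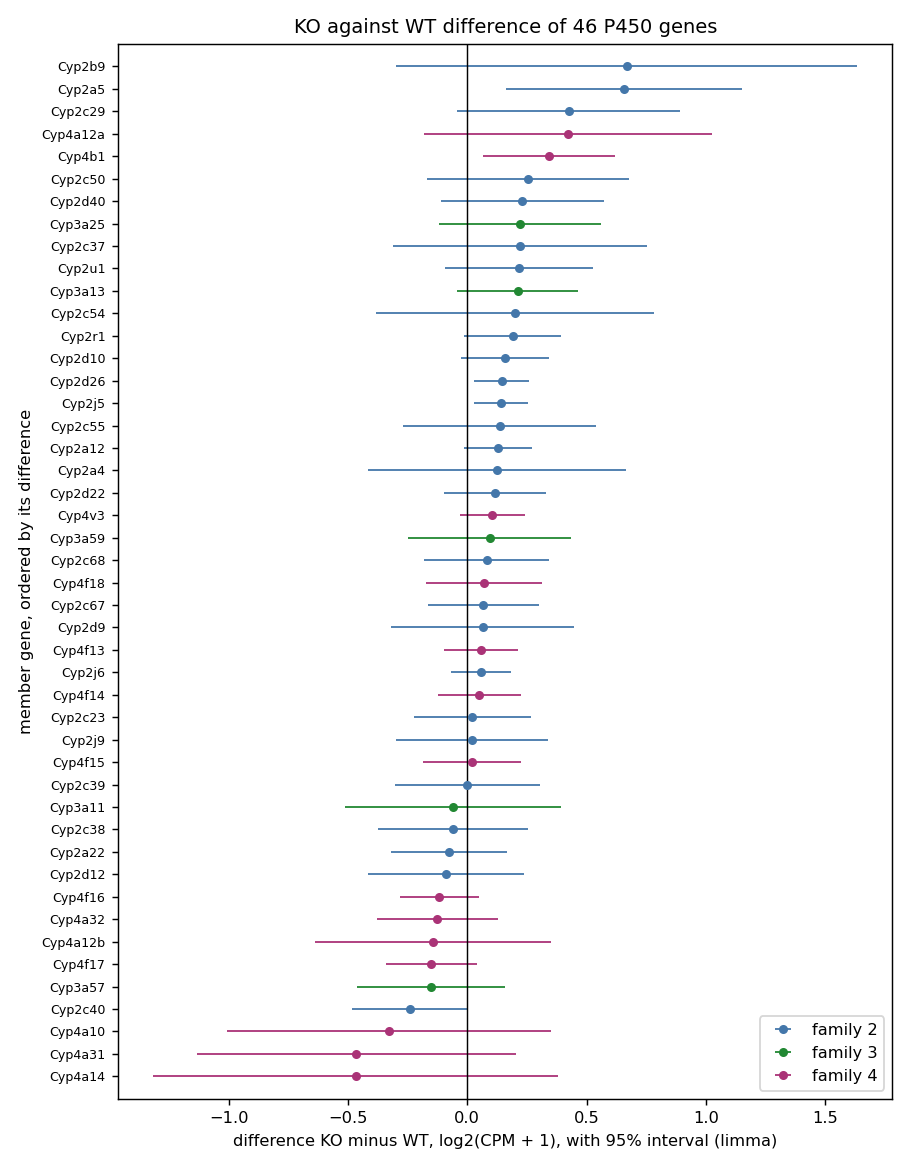
Difference KO minus WT of log2(CPM + 1) for each of the 46 members on the horizontal axis, ordered by size; points are estimates and lines are 95% intervals from limma, n = 6 mice per genotype, coloured by family. The intervals of Cyp2a5, Cyp2d26, Cyp2j5 and Cyp4b1 lie above 0, that of Cyp2c40 ends at 0.00, and 33 of 46 points are positive.

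Levels differed widely between members. Per kb of exon, with exons taken from all GENCODE transcripts of a gene so that long isoforms lower the value, the highest mean over 12 mice was 283 CPM for Cyp2d26. Cyp2d10 (241) and Cyp3a11 (237) followed, then Cyp2a5 (125), Cyp2d9 (104), Cyp2j5 (102), Cyp2c50 (100.1), Cyp2a12 (80.8), Cyp2c67 (74.9) and Cyp2c23 (71.7). Summed, the 46 members made up 0.443% to 0.641% of each library. The sum was 5223 ± 654 CPM in WT and 5563 ± 677 in KO. Of the members, 33 had a mean of at least 10 CPM and 13 a lower one, where log2(CPM + 1) understates a change.

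Subfamily 2a held the member with the smallest p. Cyp2a5, which hydroxylates coumarin and nicotine and responds to CAR, lies at 26835305 to 26843548 of chromosome 7 (mm10). In WT mice 1 to 6 it stood at 153, 189.7, 236, 175, 216 and 188 CPM. In KO mice 1 to 6 it stood at 184, 571, 301, 392, 317 and 192 CPM. KO mice 2, 3, 4 and 5 lay above every WT mouse, and KO mice 1 and 6 lay among the WT values. The mean was 193 ± 29.5 CPM (SD, n = 6) in WT and 326 ± 143 in KO, a difference of 0.66 on the log2 scale (SE 0.23, 95% interval 0.16 to 1.15, limma adjusted p = 0.240). The exact two-sided permutation p was 0.0346, before adjustment. The difference was 0.47 without KO mouse 2 and 0.84 without KO mice 1 and 3, with adjusted p-values of 0.449 and 0.106. Cyp2a4, its near-identical neighbour, was at 6.70 ± 3.14 and 7.10 ± 2.42 CPM (0.12, adjusted p = 0.924). Reads of such copies can be assigned to either gene, so both values are uncertain. Cyp2a12, a testosterone hydroxylase, was at 267 ± 21.3 and 292 ± 22.6 CPM (0.13, interval -0.01 to 0.27, adjusted p = 0.514), and its copy Cyp2a22 (95.4% identical) at 9.21 ± 1.91 and 8.58 ± 0.896. Summed over the 4 members, subfamily 2a stood at 476 ± 47.6 CPM in WT and 634 ± 162 in KO.

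Cyp2b9, a phenobarbital-responsive gene with higher levels in female liver, had the widest spread of all members. WT mice 1 to 6 held 9.84, 16.3, 37.5, 4.09, 17.6 and 25.8 CPM and KO mice 1 to 6 held 12.3, 46, 13, 44, 25.4 and 27.3. The WT values thus spanned 9.15-fold and the KO values 3.74-fold, and KO mice 2 and 4 exceeded every WT mouse. The difference was 0.67 with an interval of -0.30 to 1.63 and an adjusted p of 0.670. It was 1.13 without KO mice 1 and 3 (adjusted p = 0.282) and 0.33 without WT mouse 4 (adjusted p = 0.971). Cyp2b10 was not analysed here.

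**Figure D2:**
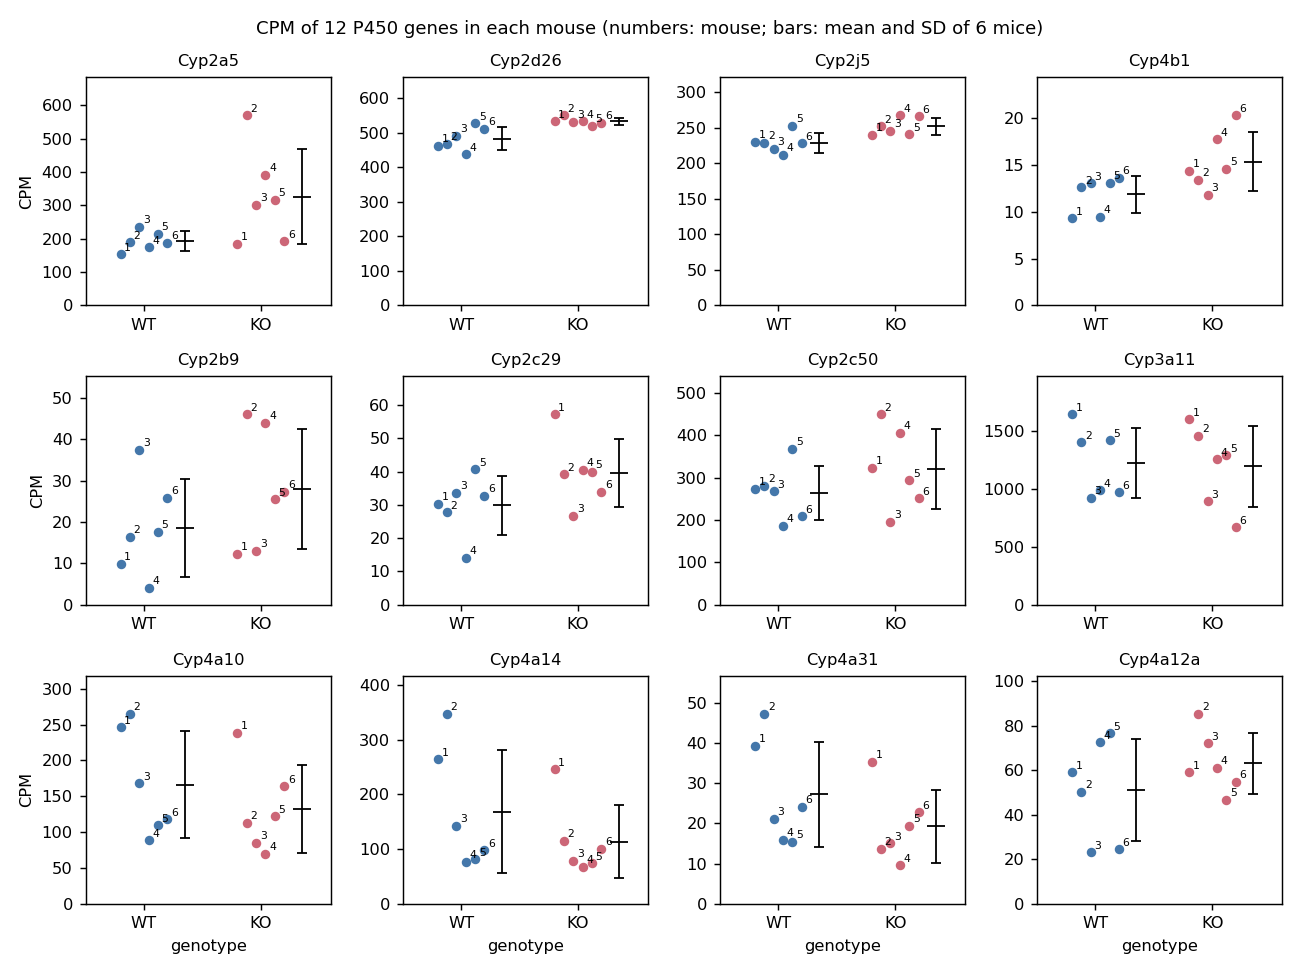
CPM of 12 named members in each mouse (vertical axes from 0), by genotype, with mouse numbers beside the points and bars for the mean and SD of 6 mice. In Cyp2a5 KO mouse 2 is highest at 571 CPM and KO mice 1 and 6 lie among the WT mice; in Cyp4a10, Cyp4a14 and Cyp4a31 the high points are WT mice 1 and 2 and KO mouse 1.

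Subfamily 2c, with 11 members on chromosome 19, holds arachidonic acid epoxygenases and the genes nearest to the human CYP2C drug-metabolising enzymes. Of its members 9 had positive differences and 2 negative ones, and the sums were 805 ± 162 CPM in WT and 897 ± 142 in KO. Cyp2c29, a CAR-responsive epoxygenase, was at 30.2, 27.8, 33.6, 14.1, 40.7 and 32.6 CPM in WT mice 1 to 6 and 57.2, 39.2, 26.6, 40.6, 39.9 and 34 in KO mice 1 to 6. WT mouse 4 was the lowest and KO mouse 1 the only one above all WT mice (difference 0.42, interval -0.04 to 0.89, adjusted p = 0.507). Without WT mouse 4 the difference was 0.23 (adjusted p = 0.836). Cyp2c50, the most abundant of the subfamily per kb, ran from 186 to 368 CPM in WT (median 271) and from 196 to 449.8 in KO (median 308). Its difference was 0.26 (adjusted p = 0.728), and it was 0.16 without WT mouse 4, 0.15 without KO mouse 2 and 0.38 without KO mouse 3. Cyp2c37 and Cyp2c54, which share stretches of 95.2% to 96.9% identity with it or with each other, were at 55 ± 16.1 and 52.1 ± 21.5 CPM in WT and at 65.3 ± 22.9 and 59.3 ± 20.5 in KO. In all 3 genes KO mice 2 and 4 were the highest KO mice and KO mouse 3 the lowest, and WT mouse 5 was the highest and WT mouse 4 the lowest WT mouse. Reads of these copies may be shared between them, so their values are not separate.

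Cyp2c40 had the largest negative difference of family 2. Its WT values were 2.77, 2.96, 2.97, 2.22, 3.18 and 2.34 CPM and its KO values 1.88, 1.84, 3.06, 1.67, 2.62 and 2.04, with KO mice 1, 2, 4 and 6 below every WT mouse. The difference was -0.24 (interval -0.48 to 0.00, adjusted p = 0.444), at a level where its copies Cyp2c67 (127 ± 23.2 and 132 ± 14.2 CPM) and Cyp2c68 (93.8 ± 13.6 and 99.9 ± 20.5) hold far more reads. Cyp2c23, an epoxygenase found in kidney and liver, had WT and KO means of 155 ± 34 and 155 ± 9.72 CPM, a difference of 0.02 (interval -0.22 to 0.27). Cyp2c38 (-0.06), Cyp2c39 (0.00) and Cyp2c55 (0.14) had means of 21.5, 1.41 and 1.96 CPM in WT and 20.5, 1.40 and 2.33 in KO. The sign of the difference of Cyp2c39, which is close to 0, turned with the pseudocount, library weights and several left-out mice.

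Subfamily 2d, 6 members on chromosome 15, held the 2 members with the highest level per kb of exon, while Cyp3a11 had the highest CPM. Cyp2d26, of the subfamily that oxidises many drugs in human liver, was at 462, 467, 491, 437, 526 and 510.2 CPM in WT mice 1 to 6 and 532, 550.3, 531, 532, 519 and 528 in KO mice 1 to 6. KO mice 1, 2, 3, 4 and 6 lay above every WT mouse, and KO mouse 5 lay below WT mouse 5. The difference was 0.14 (SE 0.05, interval 0.03 to 0.26, adjusted p = 0.277), with an exact permutation p of 0.00433 before adjustment. The spread between mice of 1 genotype was 0.07 on the log2 scale, the smallest among the members. Cyp2d10 was at 377 ± 56.4 and 418 ± 23.3 CPM (0.16, interval -0.03 to 0.34, adjusted p = 0.545). Cyp2d22 (127 ± 21.5 and 137 ± 13.2 CPM, 0.12) and Cyp2d40 (20.4 ± 4.12 and 24.4 ± 6.50, 0.23) had positive differences and Cyp2d12 (1.58 ± 0.424 and 1.44 ± 0.547, -0.09) a negative one. The sums were 1282 ± 179 CPM in WT and 1392 ± 82.5 in KO.

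The epoxygenases of subfamily 2j turn arachidonic acid into vasoactive epoxides. Cyp2j5, the main one in mouse liver and kidney, stood at 229.5, 229, 220.4, 211, 252 and 228 CPM in WT mice 1 to 6 and 240.2, 252, 246, 267, 240.3 and 266 in KO mice 1 to 6. KO mice 4 and 6 lay above every WT mouse, and WT mouse 5 lay above KO mice 1, 2, 3 and 5. The difference was 0.14 (SE 0.05, interval 0.03 to 0.25, adjusted p = 0.280, exact permutation p = 0.0152 before adjustment). Cyp2j6 was at 52.9 ± 3.29 and 55.1 ± 3.87 CPM (0.06, interval -0.07 to 0.18), and Cyp2j9 at 3 ± 0.775 and 3.06 ± 0.782 (0.02). All 3 differences were positive. Cyp2r1, the main vitamin D hydroxylase of liver, had WT and KO means of 8.33 ± 1.27 and 9.59 ± 0.991 CPM (0.19, interval -0.01 to 0.39, adjusted p = 0.493). Cyp2u1, a fatty acid hydroxylase, was at 20.1 ± 3.37 and 23.8 ± 5.82 CPM (0.22, adjusted p = 0.668). Antisense genes overlap Cyp2u1, Cyp2a4, Cyp2a22, Cyp2c55, Cyp2d9, Cyp4a12b and Cyp4f18, and the sources used here do not say whether counting used the strand. Genes of the same strand overlap Cyp2c29, Cyp2d9, Cyp2d10, Cyp2d12, Cyp3a13 and Cyp4v3, and counting by strand would not separate those.

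Family 3, 5 genes of chromosome 5 lying 33.9 to 42.1 Mb from Hsd17b13, was led by Cyp3a11. WT mice 1 to 6 held 1639.8, 1399, 922, 984, 1415 and 969 CPM and KO mice 1 to 6 held 1598, 1453, 890.1, 1254, 1287 and 667. KO mice 3 and 6 lay below every WT mouse, while the other 4 KO mice lay inside the WT range. The means were 1222 ± 301 and 1191 ± 349.9 CPM, with a difference of -0.06 (interval -0.51 to 0.39, adjusted p = 0.962). The interval leaves room for a change of up to 0.51 downwards and 0.39 upwards on the log2 scale. The sign was positive without WT mouse 1, KO mouse 3 or KO mouse 6, each left out alone. Cyp3a13, the form best known from intestine, was at 82.7 ± 15.6 and 95.5 ± 14.6 CPM (0.21, interval -0.04 to 0.46, adjusted p = 0.564). Cyp3a25 (103 ± 16.6 and 122 ± 29.9 CPM, 0.22) and its copy Cyp3a59 (6.52 ± 1.81 and 6.94 ± 1.34, 0.09) are 97.0% identical. Cyp3a57, the lowest member, was at 1.38 ± 0.579 and 1.10 ± 0.170 CPM (-0.15, adjusted p = 0.792), with a difference of -0.25 without WT mouse 3 and -0.06 without WT mouse 4.

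The fatty acid omega-hydroxylases of subfamily 4a, targets of PPARalpha, had 5 negative differences and 1 positive one among 6 members. Cyp4a14, at 115486200 to 115496142 of chromosome 4 (mm10), stood at 264, 348, 142, 77.1, 81.5 and 97.7 CPM in WT mice 1 to 6 and 246, 115, 78.7, 67.7, 74.2 and 101 in KO mice 1 to 6. WT mice 1 and 2 and KO mouse 1 were high, and the other 9 mice lay between 67.7 and 142 CPM. The difference was -0.47 (SE 0.39, interval -1.32 to 0.38, adjusted p = 0.759). Cyp4a10, its neighbour, stood at 246, 265, 168, 88.7, 109.5 and 118 CPM in WT and 238, 113, 84.8, 69.6, 122 and 164 in KO, with the same 3 mice highest. Its difference was -0.33 (interval -1.01 to 0.35, adjusted p = 0.800). Cyp4a31, 96.1% identical to Cyp4a10, stood at 39.4, 47.4, 21.2, 16, 15.4 and 24.1 CPM in WT and 35.4, 13.7, 15, 9.60, 19.4 and 22.8 in KO (-0.46, interval -1.13 to 0.21, adjusted p = 0.670). Again WT mice 1 and 2 and KO mouse 1 were the highest, and KO mice 2, 3 and 4 lay below every WT mouse. Cyp4a32, 97.2% identical to Cyp4a10, was at 8.79 ± 1.65 and 7.94 ± 1.25 CPM (-0.13). Without KO mouse 1 the difference of Cyp4a14 was -0.72, and it was -0.29 without WT mouse 1 and -0.21 without WT mouse 2. That of Cyp4a10 was -0.52 without KO mouse 1, -0.19 without WT mouse 1, and -0.17 without WT mouse 2 and likewise without KO mouse 4. That of Cyp4a31 was -0.28 without WT mouse 2 and -0.30 without KO mouse 4. The sum over subfamily 4a came to 446 ± 201 CPM in WT and 358 ± 134 in KO.

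Cyp4a12a, a male-predominant omega-hydroxylase of arachidonic acid, was the only 4a member with a positive difference. It stood at 59.2, 50.4, 23.2, 72.6, 76.6 and 24.5 CPM in WT mice 1 to 6 and 59.2, 85.5, 72.2, 61.1, 46.7 and 54.7 in KO mice 1 to 6. WT mice 3 and 6 were low, and the other 10 mice lay between 46.7 and 85.5 CPM. The difference was 0.42 (interval -0.18 to 1.02, adjusted p = 0.667), and it was 0.23 without WT mouse 3 and 0.24 without WT mouse 6. Its copy Cyp4a12b, 98.3% identical, was at 24.5 ± 8.49 and 21.4 ± 5.26 CPM (-0.14), so the pair had opposite signs. Of the 4 members known to be higher in male liver, 3 had positive differences, with a median of 0.14, and of the 6 known to be higher in female liver 4 did, with a median of 0.06. Over all genes tested, 0 of either group passed, and 0 had an unadjusted p under 0.05. The labels give no sex, and the Y-linked Ddx3y was present in 12 of 12 mice at 42.0 to 72.4 CPM, while Xist was at 0.194 to 1.36 CPM.

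Family 4 further holds Cyp4b1, Cyp4v3 and subfamily 4f. Cyp4b1, best known from lung, where it activates protoxins, stood at 9.30, 12.6, 13.1, 9.50, 13.1 and 13.6 CPM in WT mice 1 to 6 and 14.4, 13.4, 11.8, 17.8, 14.6 and 20.4 in KO mice 1 to 6. KO mice 1, 4, 5 and 6 lay above every WT mouse, and KO mice 2 and 3 lay among the WT values. The difference was 0.34 (SE 0.13, interval 0.06 to 0.62, adjusted p = 0.287, exact permutation p = 0.0433 before adjustment). Subfamily 4f, which inactivates leukotrienes by omega-hydroxylation, had 4 positive and 2 negative differences from -0.15 for Cyp4f17 to 0.07 for Cyp4f18. Its most abundant member Cyp4f14 was at 114 ± 13.7 and 118 ± 9.58 CPM, followed by Cyp4f15 (52.6 ± 5.83 and 53.5 ± 8.21) and Cyp4f13 (32.3 ± 2.76 and 33.7 ± 3.14). Cyp4f17 was at 12.9 ± 0.924 and 11.6 ± 1.63 CPM and Cyp4f16 at 8.55 ± 1.11 and 7.77 ± 0.411. Cyp4f18, the form of mouse leukocytes, was at 3.90 ± 0.557 and 4.17 ± 0.870 CPM (0.07, interval -0.17 to 0.31), and the leukocyte integrin Itgam at 30.2 ± 5.96 and 21.3 ± 3.17. Of the leukocyte markers tested, the 7 of recruited macrophages had negative differences and the 5 of Kupffer cells, 4 of T cells and 3 of neutrophils positive ones. Cyp4v3, a fatty acid hydroxylase whose human counterpart is mutated in a corneal and retinal dystrophy, was at 232 ± 14 and 249.6 ± 21.4 CPM (0.11, interval -0.03 to 0.24, adjusted p = 0.612).

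**Figure D3:**
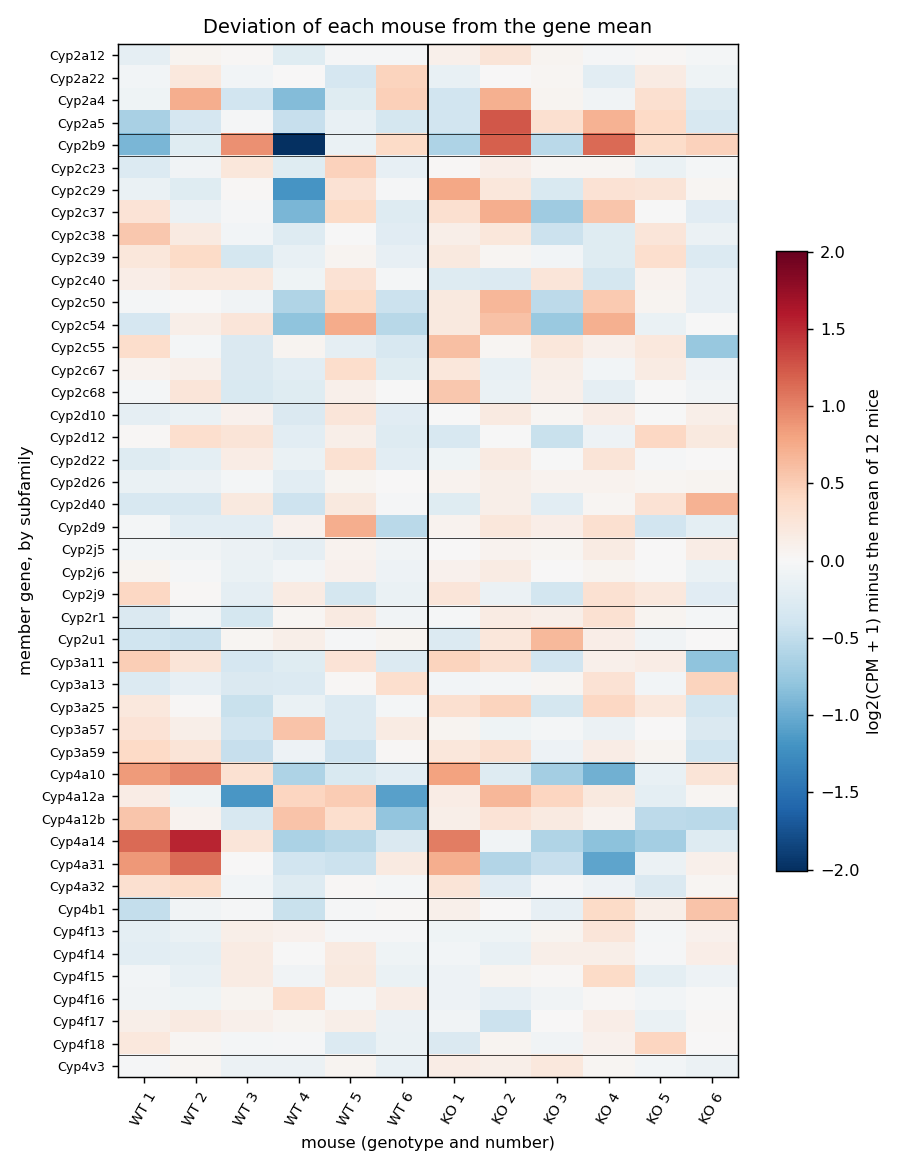
Deviation of log2(CPM + 1) of each mouse (columns, WT left and KO right of the black line) from the mean of 12 mice for each member (rows, by subfamily); red is above and blue below the mean. The darkest cells lie in Cyp2b9, Cyp4a14, Cyp2a5, Cyp2c29, Cyp4a12a, Cyp4a31 and Cyp4a10, within genotypes as well as between them.

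Mice of 1 genotype differed more in many of these genes than in the typical gene. The pooled SD within genotypes of log2(CPM + 1) had a median of 0.26 over the 46 members and 0.16 over all genes tested. Of the members, 27 (58.7%) lay above 0.23, the upper quartile of all genes, which 25% of genes exceed by construction. Where the mean reached 10 CPM the medians were 0.28 for 33 members and 0.14 for all 9186, and 22 of the 33 lay above the upper quartile of 0.19. The widest spreads were those of Cyp2b9 (0.91), Cyp4a14 (0.80), Cyp4a10 (0.64), Cyp4a31 (0.63) and Cyp4a12a (0.57). Cyp2j5 (0.08), Cyp2d26 (0.07) and Cyp2j6 (0.09) were the steadiest members. These values describe the mice and were given no test.

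**Figure D4:**
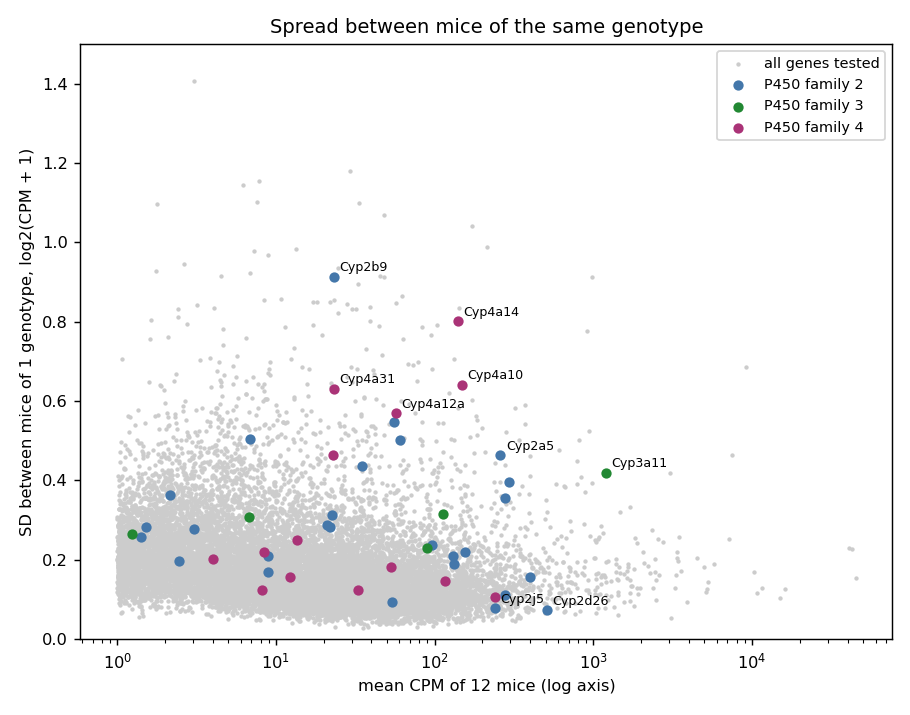
Pooled SD between mice of the same genotype, in log2(CPM + 1), against the mean CPM of 12 mice (log axis), for 15648 genes (grey; 3 genes above 1.5 are outside the axis) and the 46 members by family. Cyp2b9, Cyp4a14, Cyp4a10, Cyp4a31 and Cyp4a12a lie in the upper part of the cloud, and Cyp2d26 and Cyp2j5 in its lower part.

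Of 5 pairs of genes compared across the 12 mice, 2 were correlated after adjustment over the pairs. Cyp4a10 and Cyp4a14 had a Pearson r of 0.93 (permutation p = 1e-05, the smallest that 100000 resamples can give, adjusted p = 5e-05) and a Spearman rho of 0.86 (permutation p = 0.00082, adjusted p = 0.00205). Without WT mice 1 and 2, the farthest from the median of Cyp4a10, r was 0.88, and it was 0.98 in the 6 WT mice and 0.86 in the 6 KO mice. The male-predominant pair Cyp4a12a and Cyp2d9 had an r of 0.73 (permutation p = 0.00641, adjusted p = 0.0160) and a rho of 0.89 (permutation p = 0.00025, adjusted p = 0.00125). Without WT mice 3 and 6 this r was 0.77, and it was 0.76 in WT and 0.77 in KO. Cyp2d9, a male-predominant steroid hydroxylase, was itself at 274 ± 90.7 and 279 ± 49.4 CPM (0.06, adjusted p = 0.950), with WT mouse 5 highest at 446. The other 3 pairs gave r = 0.39 for Cyp3a11 with Cyp2c29 (permutation p = 0.207, rho = 0.37, permutation p = 0.240) and r = 0.25 for Cyp4a14 with the PPARalpha target Vnn1 (permutation p = 0.428, rho = 0.33, permutation p = 0.295). Cyp4f18 with Itgam gave r = 0.11 (permutation p = 0.741, rho = 0.08, permutation p = 0.799). Their adjusted p-values were 0.345, 0.535 and 0.741 for r and 0.369, 0.369 and 0.799 for rho. The r without the 2 farthest mice was 0.50, 0.35 and 0.08. Genes of 1 mouse share a library and its scaling.

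The pathway genes around the members likewise had 0 calls. Of 15 genes for electron transfer to P450 and for haem synthesis and breakdown, all tested, 12 had positive differences, with a median of 0.09, 3 had an unadjusted p under 0.05 and 0 passed. Alas1, the rate-limiting enzyme of haem synthesis and a CAR-responsive gene, stood at 208, 245, 341, 363, 247 and 419.9 CPM in WT mice 1 to 6 and 472, 627, 527, 465, 275 and 597 in KO mice 1 to 6. All KO mice except mouse 5 lay above every WT mouse (difference 0.70, SE 0.21, adjusted p = 0.148). Pgrmc1, a haem-binding partner of P450 enzymes, was at 675 ± 57.9 and 761 ± 61.1 CPM (adjusted p = 0.350). Por, the P450 reductase, was at 128 ± 18.8 and 151 ± 21.3 CPM (adjusted p = 0.431).

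Of 22 transcription factors known to drive P450 genes in liver, 14 had positive differences (median 0.09), 3 were higher and 1 lower at an unadjusted p under 0.05, and 0 passed. The smallest p-values were those of the liver factor Foxa2 (19.8 ± 3.93 and 25.6 ± 2.96 CPM, 0.37, adjusted p = 0.157), the growth hormone signal transducer Stat5a (31.8 ± 3.76 and 27.3 ± 2.87, -0.22, adjusted p = 0.319) and Ppara (125 ± 14.9 and 142 ± 14.2, 0.19, adjusted p = 0.421). Foxa2 passed without WT mouse 5 (adjusted p = 0.0356). The CAR gene Nr1i3 was at 84 ± 16.4 and 102 ± 35.4 CPM and the PXR gene Nr1i2 at 44.7 ± 4.35 and 47.6 ± 6.13, with adjusted p-values of 0.824 and 0.822.

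The targets of these receptors outside the P450s were read by their counts. Of 18 CAR and PXR targets, 16 had positive differences, with a median of 0.17, 2 were higher and 1 lower at an unadjusted p under 0.05, and 0 passed. Ugt1a1, which conjugates bilirubin, was at 324 ± 41.2 and 368 ± 23.6 CPM (adjusted p = 0.352), and Gadd45b, a stress-response gene, was at 10.0 ± 1.90 and 7.44 ± 1.20 (-0.38, adjusted p = 0.211). The 10 members known to respond to CAR or PXR had 9 positive differences, with a median of 0.22. Of all members 71.7% were positive, and of all genes tested 39.2%. The 10 include the copies Cyp2a4 and Cyp2a5 and the copies Cyp2c37, Cyp2c50 and Cyp2c54, whose values are not separate. At an unadjusted p under 0.05 there was 1, Cyp2a5, and 0 passed. Of 16 PPARalpha targets outside the P450s, 8 differences were positive and 8 negative, with a median of -0.04. At an unadjusted p under 0.05 there were 0, and 0 passed. The smallest p was that of Pdk4, a kinase that limits glucose oxidation (52.2 ± 26.5 and 29.9 ± 11.5 CPM, -0.70, adjusted p = 0.462). The P450 genes of other families or outside the rule had 12 positive differences of 16 tested, with a median of 0.17, 3 with an unadjusted p under 0.05 and 0 calls. The smallest p was that of Cyp2c70, the muricholic acid enzyme (144 ± 10.6 and 166 ± 13.7 CPM, adjusted p = 0.196). For the same mice, interferon-stimulated genes had 16 of 16 positive differences, of which 15 had an unadjusted p under 0.05 and Cxcl9 passed, and matrix genes had 12 of 12 negative ones, of which 10 had an unadjusted p under 0.05 and 0 passed. The part of these in the P450 values was not tested.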

How the data were processed

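RNA of 12 mouse livers was sequenced, 1 library per mouse. Per the labels' protocols, libraries were made with a globin and rRNA depletion kit and a directional kit, while the molecule label says polyA RNA. Per the submitters' processing notes, mm10, Partek 10.0, STAR 2.7.3a and DESeq2 1.14.1 were used, with no role given. The authors deposited 1 table whose columns are CPM, each summing to 1000000 over 20143 genes. The sources used here do not give the counting tool, its annotation or its use of strand. Between 70.9% and 75.1% of a library's low values were whole multiples of 1 step, to within 0.02 steps. The other values were fractional, and a count model was therefore not used. Gene symbols and positions came from GENCODE for 20055 IDs, and 88 IDs without one held 9.59% of the CPM. All 12 columns were mapped by title, and 0 pairs of columns were identical. The design expected normalized values, and CPM called for the same test.

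Values were converted to log2(CPM + 1) and tested with limma 3.58.1 in R 4.3.3 (two-sided, trended empirical Bayes, no covariate). The 15648 genes whose mean reached 1 CPM were tested, p-values were adjusted over them by Benjamini-Hochberg, and the threshold was 0.05. Permutation tests were run in Python 3.11.15 over all 924 assignments of mice, or 100000 resamples for correlations. SciPy 1.17.1 gave the ranks and the adjustment over the pairs. Copies were sought with BLASTN 2.17.0. The limma step was tested on simulated data. Alternatives were other pseudocounts, filters, scalings, variance models, library weights, the mouse number as a block, and mice left out.

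Members and gene lists were chosen with earlier results of these data known. Named genes were Hsd17b13, the 10 members with the smallest p, the 10 highest per kb, the 5 with the widest spread, Cyp2b9, Cyp2c29, Cyp3a11, Cyp4a10, Cyp4a14, Cyp4a12a, Cyp2d9, Cyp4f18 and Cyp2r1, the members and genes nearest the minimum, and up to 3 genes with the smallest p of each pathway list. The remaining members are given so that each is accounted for, and Nr1i2, Nr1i3, Krt7, Spp1, Cela1, Pebp1, Cxcl9 and Itgam were named outside the rule.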

Additional observations from a re-analysis of the deposited data

Results flagged for a closer look

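In 2 of the 94 groups of 6 values tested (46 members and Hsd17b13 in each genotype), 1 mouse stood far from the others by Dixon's 95% criterion, where chance gives about 1 in 20 groups. Both were KO mouse 1. It held Cyp2c68 at 139 CPM, with the next KO mouse at 103 (gap over range 0.66), and Cyp4a14 at 246 CPM, with the next at 115 (gap over range 0.74). Without this mouse the Cyp4a14 difference was -0.72 on the log2 scale.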

How the results depend on the processing

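Under 23 alternatives, 12 of which left out 1 mouse, 0 members were called, and the lowest adjusted p of a member was 0.106. Counts of all genes called moved from 16 higher and 15 lower to 6 lower with pseudocount 10, 10 higher and 4 lower among genes averaging 10 CPM or more, 35 and 41 with quantile normalization, 38 lower with median-of-ratios scaling, 9 lower without the mean trend, 74 and 138 with library weights, and 130 and 62 without KO mice 1 and 3. Members with an unadjusted p under 0.05 numbered 9 with library weights and 7 without KO mice 1 and 3, against 4. With 1 mouse left out, 11 to 34 genes were called higher, 4 to 28 lower, and 4 to 8 members had such a p. The causes were not tested.

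With the mouse number as a replicate block, 32 genes were called lower and 0 members were called. In that fit 8 of the 46 members had an unadjusted p under 0.05, as did 11.4% of all genes. The numbers were not taken as pairs, because deviations of same-numbered mice correlated at -0.51 to 0.42, over 0.1 in 4 of 6 pairs, and 4 of 12 mice correlated best with their own number.

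Of 776 recomputed differences of 34 named genes, 755 kept their direction and their side of the threshold, 19 changed sign and 2 passed it. The difference of Cyp2c39 became -0.000763 with pseudocount 10, -0.0488 with library weights and -0.0344 without KO mice 1 and 3, and that of Cyp2c67 became -0.000289 without those mice. With 1 mouse left out, differences ran from -0.0701 to 0.0784 for Cyp2c39, -0.0306 to 0.117 for Cyp2c23, -0.0363 to 0.216 for Cyp2d9, -0.157 to 0.0951 for Cyp3a11 and -0.00813 to 0.135 for Cyp4f18. Foxa2 passed with library weights (0.41, adjusted p = 0.0498) and without WT mouse 5 (0.46, adjusted p = 0.0356), over a range of adjusted p from 0.0356 to 0.330. The correlations were also computed with other pseudocounts and scaling, chosen after seeing the data. The 2 adjusted calls held there, and Cyp4f18 with Itgam became r = -0.15 with median-of-ratios scaling. Depth limits members near 1 CPM, where counting error reached 14.7%.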
